A study of Mus musculus with 30 samples.

Results

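The serum response and actin cytoskeleton genes are a set of 38 genes named by symbol: 16 immediate early genes and 22 genes of serum response factor (SRF) and the actin cytoskeleton. A gene entered through every probe annotated with its symbol, current or older (Cyr61 for Ccn1, Ctgf for Ccn2). The rule uses no measured value. Of the 38 members, 35 had a probe (56 probes in all), and 26 of these passed the filter on dim probes and were tested among 9826 genes: 10 immediate early genes and 16 SRF and actin genes. No probe used here was annotated to Actg1, Myl9 or Actn1.

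Growth factors and lipids in serum act on cells through at least a pair of routes that meet at SRF, which binds a DNA element called the CArG box. MAP kinase signaling acts with ternary complex factors on immediate early genes such as Fos and Egr1, which are transcribed within minutes without new protein synthesis. Polymerisation of actin frees the MRTF cofactors, which act with SRF on genes of the actin cytoskeleton, among them Vcl and Srf itself. Ccn1 and Ccn2 also respond to YAP and TEAD factors.

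The arrays profiled RNA of Ainv15, a male mouse embryonic stem (ES) cell line, in 7 groups of 4 samples. All cells stood for 6 h in their medium on gelatin-coated dishes, were detached with trypsin before RNA was stored, and come from 1 line. The ESC group stayed in medium with 5% fetal calf serum, 5% serum replacement and LIF. The N2B27 group was moved to N2B27, a defined medium with 0.5% N2 and 0.5% B27 supplements for which the labels list no serum and no LIF, so serum cannot be told apart from the other changes of medium. The remaining 5 groups were in N2B27 too: Dox received doxycycline at 2 ug/ml, DAPT received this inhibitor of γ-secretase at 2.5 ng/ml after 4 h of it in ESC medium, the group 1% O2 was cultured at 1% oxygen, and 1% O2+Dox and 1% O2+DAPT combined these. As background on the study, the doxycycline-driven gene encodes an active, intracellular form of Notch1. The labels do not name the transgene, and no group holds cells without it, so its effect cannot be told apart from that of doxycycline itself. The groups share replicate numbers 1 to 4, given in the labels as biological replicates.

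Levels are given as log2 of the background-corrected, quantile-normalized array intensity. A level compares samples for 1 probe, not 1 gene with another. Differences were tested with limma on all 28 samples, and a gene passed at a Benjamini-Hochberg adjusted p under 0.05 over the 9826 genes. The same model was also fitted with the replicate number as a block, which compares samples within their number. Same-numbered samples deviated together, so the blocked value stands beside each result whose call it changes. In bulk RNA, fewer cells of a type and less RNA per cell cannot be told apart. As a check of the labels, genes outside the set were read first. The Notch targets Nrarp (log2 difference 3.45) and Hes5 (2.93) were higher in Dox than in N2B27, and the hypoxia genes Egln3 (3.90) and Vegfa (1.55) were higher at 1% oxygen. With DAPT, neither Nrarp (-0.16) nor Hes5 (0.19) passed against N2B27, nor did they at 1% oxygen (-0.24 and -0.07). Hes5 was above the background limit in 0 of 4 DAPT and 1 of 4 N2B27 samples. This check therefore does not show an effect of DAPT. All 8 ES cell markers examined were above the background limit in 28 of 28 samples.

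Among the 26 tested members, 21 were above the background limit in all 28 samples, and Fos, Fosl2 and Ccn1 in 25 of them. The dimmest were Jun, above the limit in 14 samples, and Tagln, in 12. Of the 9 members that the filter removed, Fosl1, Egr2, Nr4a1, Ier2, Btg2, Cnn1 and Thbs1 were above the limit in 0 of 28 samples and Fosb in 1. Ankrd1, a cardiac ankyrin repeat protein and target of MRTF and YAP, was above it in 2 samples, both in ESC medium. Its signal was 101, 67.3, 15.8 and 26.9 in the 4 ESC samples and 20.0, 11.8, 3.00 and 0.700 in the 4 N2B27 samples. Most of these values were below the limit of 29.3 to 41.6 signal units. Ankrd1 is not among the tested members because the filter on dim probes removed it.

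Promoter stretches of some members named below that hold a CArG box or a CRE are shown here. SRF binds the CArG box, and CREB and ATF factors bind a CRE, the cyclic AMP response element TGACGTCA. The RefSeq promoter table (GRCm38.p6), which spans 250 bases before to 50 after each start, held 29 members. Fosl1, Egr1, Egr3, Ier2, Ccn2, Actb, Tagln, Thbs1 and Tuft1 were not matched. Capitals mark the CArG boxes in the first 4 lines and the CRE in the last, with 40 bases on each side where the window allows.
Srf: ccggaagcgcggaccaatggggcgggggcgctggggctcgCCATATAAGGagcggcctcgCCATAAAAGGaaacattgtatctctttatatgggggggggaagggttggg
Vcl: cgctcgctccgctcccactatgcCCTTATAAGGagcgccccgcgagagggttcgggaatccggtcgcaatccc
Zfp36: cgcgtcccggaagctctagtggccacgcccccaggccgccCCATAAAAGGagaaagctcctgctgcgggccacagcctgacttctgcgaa
Cnn2: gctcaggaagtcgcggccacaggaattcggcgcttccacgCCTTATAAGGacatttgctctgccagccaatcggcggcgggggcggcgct
Dusp1: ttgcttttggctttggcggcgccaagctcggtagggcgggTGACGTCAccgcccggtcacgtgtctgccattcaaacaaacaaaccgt
Srf lies on the minus strand (chr17:46556175-46556284) and holds 2 boxes, 82 and 62 bases before its start. Vcl lies on the plus strand (chr14:20929148-20929220), Zfp36 on the minus strand (chr7:28379237-28379326), Cnn2 on the plus strand (chr10:79988504-79988593) and Dusp1 on the minus strand (chr17:26508568-26508655). A CArG box was found in 7 of the 29 matched members, which besides these 4 were Actg1, Myl9 and Egr2, and in 1.81% of the 27025 genes of the table. The CRE was found in Dusp1 and Btg2, and in 2.03% of all genes. The windows of Fos, Fosl2 and Ccn1 held neither a CArG box nor a CRE. Bases farther than 250 before a start were not searched. The TEAD motif GGAATG was found in 3 of 11 immediate early and 7 of 18 SRF and actin members, among them Ccn1 and Vcl, against 16.6% of all genes. The AP-1 motif TGANTCA was found in 0 of 11 and 3 of 18 members, against 8.97% of all genes. Both strands were searched, and in the members' windows no match of 1 motif overlapped one of another. A match describes these letters only.

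Levels of many actin genes differed between replicate numbers in every group. Averaged over the 7 groups, Zyx was 0.86 higher on the log2 scale in replicates 1 and 2 than in replicates 3 and 4, Acta2 0.90, Tagln 0.80, Tpm1 0.76 and Actb 0.63. Among the SRF and actin members the median of this difference was 0.50, with 14 of 16 members above 0, while among the immediate early members it was 0.18, with 6 of 10 above 0, and among all genes 0.01, with 51.3% above 0. In all 7 groups, both of replicates 1 and 2 stood above both of replicates 3 and 4 for Klf6, Zfp36, Actb, Acta2, Tpm1, Tpm2, Tagln2, Actn4, Flna and Zyx. The share of all genes that separate in this way was not counted, so this list cannot be called particular to the members. Srf (-0.08) and Vcl (-0.04) differed little between these sets, and Egr1 (-0.44), Ccn1 (-0.25) and Ccn2 (-0.22) were lower in replicates 1 and 2. These are descriptions with no test, since the labels do not say what the numbers stand for.

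**Figure D1:**
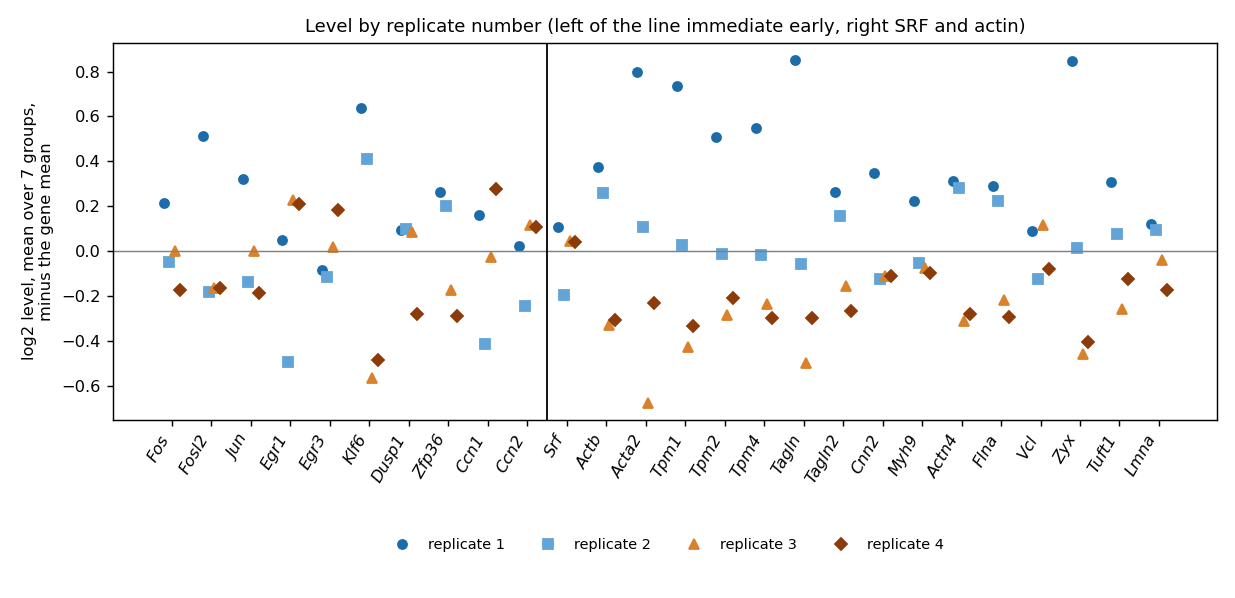
Level of each tested member by replicate number: the mean log2 level over the 7 groups minus the gene's mean over the 4 numbers, with immediate early genes left of the vertical line. Replicate 1 (circles) is the highest number for 15 of 16 SRF and actin genes and for 5 of 10 immediate early genes. The share among all genes was not counted. Replicates 3 and 4 lie below 0 for most SRF and actin genes.

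Some markers of other cell types differed between the replicate numbers as well. The summed signal of the 13 fibroblast and feeder markers with a probe ran from 1030 to 2604 and was highest in replicate 1 and lowest in replicate 4 in each of the 7 groups. The summed smooth muscle markers were also highest in replicate 1 and lowest in replicate 4 in each group. The summed ES cell markers were lowest in replicate 4 in every group but 1% O2+DAPT. These sums are in signal units, and the mean signal of the arrays ran from 646 to 862. Of the 13 fibroblast and feeder markers, 5 were above the background limit in all 28 samples, and Postn, Lum and S100a4 in none. Between the sets, 8 of the 13 were higher and 5 lower in replicates 1 and 2, with a median difference of 0.06 and a range from -0.45 (Loxl1) to 1.30 (Col1a1). Of 6 smooth muscle markers with a probe, Myh11 was above the limit in 0 samples and Des in 1. Of the 8 ES cell markers, 3 were higher and 5 lower in replicates 1 and 2, from -1.95 for Sox2 to 0.75 for Pou5f1. The part of these differences in the actin gene levels was not tested. Between probes the pattern was not uniform for Actb, Ccn1, Cnn2, Fosl2 and Srf, whose probes differed in direction. For Actb, the brightest probe was 0.63 higher in replicates 1 and 2, while a pair of other Actb probes with identical values read 12.6 and 12.5 in replicates 1 and 2 and 13.4 and 13.3 in replicates 3 and 4. The second probes of Ccn1 (0.88) and Srf (0.83), above the background limit in 9 and 13 samples, were higher in replicates 1 and 2, against the brighter probes.

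Moving from ESC medium to N2B27 lowered serum response genes of both lists. Without the block, 3 of 26 members passed, Ccn1, Ccn2 and Vcl, all lower in N2B27. The test called 1.93% of all genes. With the block 17 members passed, 6 immediate early and 11 SRF and actin genes, again all lower in N2B27, where 16% of all genes passed. Of the 26 members, 22 were lower in N2B27 in each of the 4 replicate pairs, against 16.7% of all genes. The median log2 difference was -0.46 among the immediate early members, -0.25 among the SRF and actin members and 0.01 among all genes. Some markers of other cell types differed between the media with the block, where 16% of all genes passed. Without it, no marker passed. The smooth muscle markers summed to 902 to 1257 signal units in ESC medium and 641 to 970.0 in N2B27, and 2 of 4 tested, Smtn (-0.37) and Actg2 (-0.40), were lower with the block. The fibroblast and feeder markers summed to 1350 to 2429 and 1190 to 2267, and 2 of 9 tested, Thy1 (-0.52) and Dcn (-0.60), were lower with the block. With the block, 1 of 4 trophectoderm markers tested, Tfap2c (0.41), was higher in N2B27, and no ES cell or extraembryonic endoderm marker passed. The part of these markers in the differences of the members was not tested.

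Among the tested members, the RNAs of the secreted matricellular proteins fell most. Ccn1, a heparin-binding matrix protein, stood at 8.60, 7.98, 8.35 and 8.70 in ESC replicates 1 to 4 and at 7.42, 6.48, 6.94 and 7.11 in N2B27. Every ESC sample lay above every N2B27 sample. The log2 difference was -1.42 ± 0.24 (SE, n = 4 per group; limma adjusted p = 0.00143), a fall of 2.67-fold, and a second, dimmer probe gave -1.20. Ccn2, connective tissue growth factor, measured 10.93, 10.71, 11.01 and 11.12 in ESC medium against 10.16, 9.68, 10.16 and 10.52 in N2B27. These groups did not overlap either, and the difference was -0.81 ± 0.18 (SE; limma adjusted p = 0.0154). Ccn2 no longer passed when ESC replicate 4 (limma adjusted p = 0.0600) or N2B27 replicate 2 (limma adjusted p = 0.0711) was left out.

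Vcl encodes vinculin, which links integrin adhesions to actin. Its levels were 12.31, 12.19, 12.53 and 12.30 in ESC medium and 11.92, 11.78, 11.98 and 11.73 in N2B27, with no overlap. The difference of -0.48 ± 0.11 (SE; limma adjusted p = 0.0167) was lost without ESC replicate 3 (limma adjusted p = 0.0823), without N2B27 replicate 2 (limma adjusted p = 0.0562) and without N2B27 replicate 4 (limma adjusted p = 0.0663), and also with median scaling. Without N2B27 replicate 2, Ccn1 was the 1 member that passed. In replicates 1 and 2 alone 0 members passed, and in replicates 3 and 4 alone 3 did (Ccn1, Cnn2 and Zyx).

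**Figure D2:**
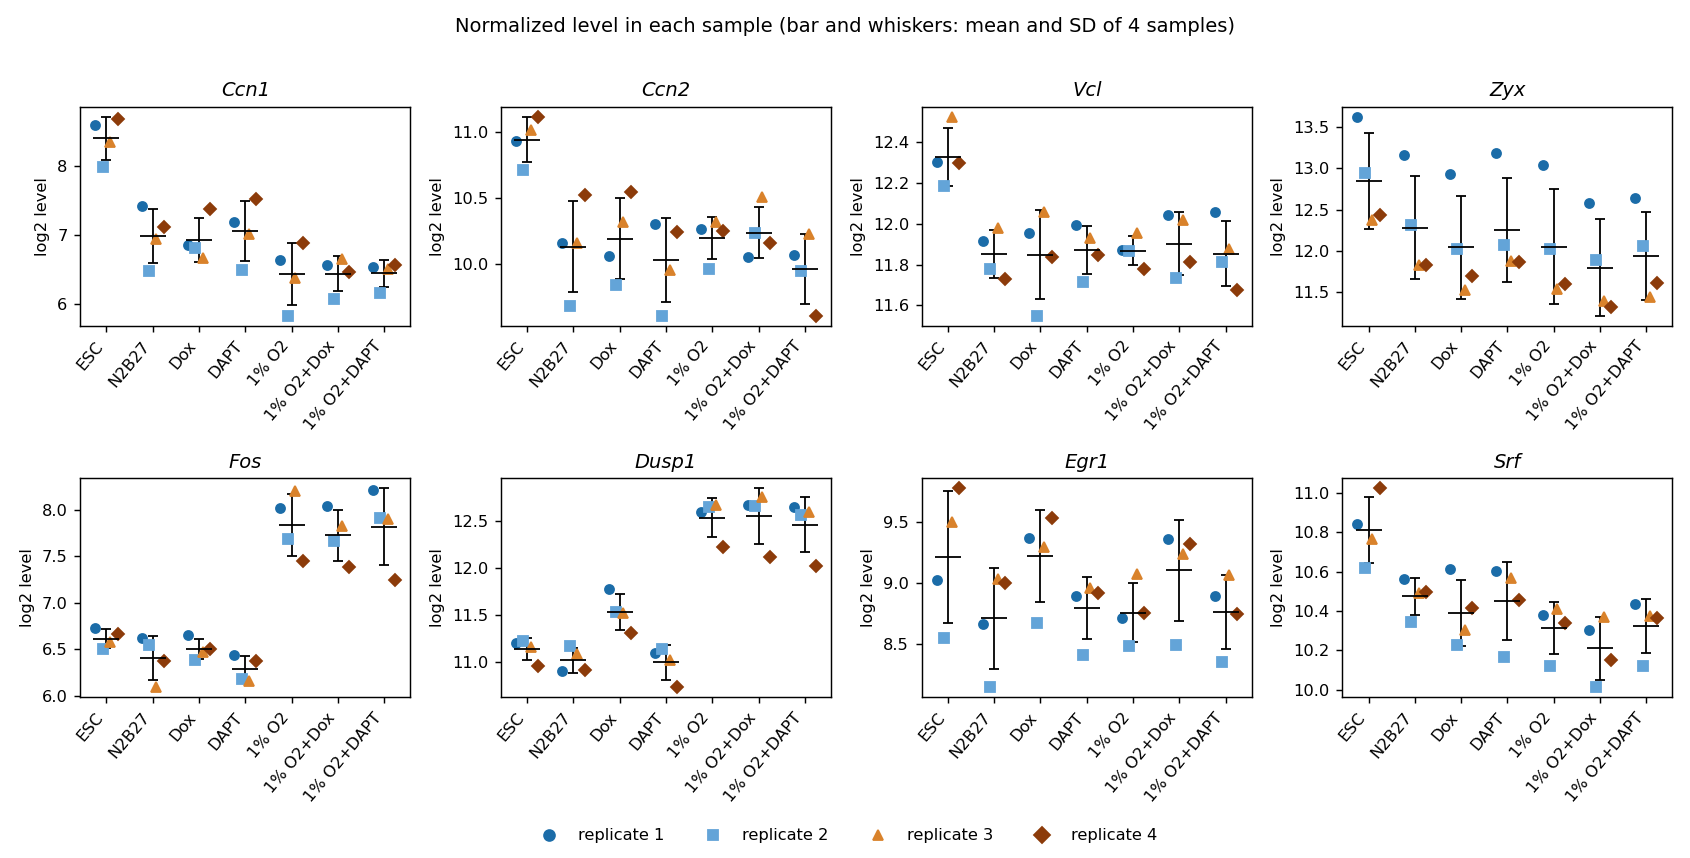
Normalized log2 level of 8 members in each of the 28 samples, by group and replicate number, with the mean and SD of the 4 samples as bar and whiskers. Ccn1, Ccn2 and Vcl are highest in the ESC group, Fos and Dusp1 are highest in the 3 groups at 1% oxygen, and Zyx shows replicate 1 on top in every group.

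Srf itself stood at 10.84, 10.62, 10.77 and 11.02 in ESC medium and at 10.56, 10.34, 10.49 and 10.50 in N2B27. The groups did not overlap, and the difference was -0.34 ± 0.11 (SE; limma adjusted p = 0.15). Srf passed with the replicate block (limma adjusted p = 0.000653). Its second probe gave -0.51. Zfp36, which binds AU-rich messages and speeds their decay, measured 9.17, 9.13, 8.73 and 8.70 against 8.63, 8.69, 8.15 and 8.22. Here the ESC samples of replicates 3 and 4 lay just above the N2B27 samples of replicates 1 and 2. The difference of -0.51 passed only with the block (limma adjusted p = 0.244 without it and 3.37e-06 with it).

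Egr1, a zinc finger factor induced by serum, ranged more between replicates than between media: 9.03, 8.55, 9.51 and 9.78 in ESC medium and 8.67, 8.15, 9.04 and 9.01 in N2B27. The groups overlapped, but each pair was lower in N2B27, by 0.36 to 0.77. The difference of -0.50 had a limma adjusted p of 0.492, and of 0.00454 with the block. Fosl2, an AP-1 subunit, stood at 7.65, 6.71, 6.88 and 6.85 against 6.81, 6.45, 5.88 and 6.70, with overlap. Its difference of -0.56 passed only with the block (limma adjusted p = 0.0115), and a second probe gave 0.12. Klf6 (-0.43), a zinc finger factor, also passed only with the block.

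Fos and Dusp1, the phosphatase that switches off MAP kinases, did not pass between the media in either fit. Fos stood at 6.73, 6.50, 6.57 and 6.66 in ESC medium and at 6.63, 6.54, 6.09 and 6.38 in N2B27, and the difference was -0.21 with a 95% interval of -0.57 to 0.16. Jun was above the background limit in 3 of 4 ESC samples and in 0 of 4 N2B27 samples, and it did not pass (limma adjusted p = 0.531). Egr3 was the 1 immediate early member with a higher mean in N2B27 (0.25), and it did not pass.

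Zyx encodes zyxin, a LIM protein of focal adhesions. Its levels were 13.62, 12.94, 12.37 and 12.43 in ESC medium and 13.16, 12.31, 11.83 and 11.84 in N2B27. The replicate numbers spread the samples over more than the media did, but every pair fell, by 0.46 to 0.63. The difference of -0.56 had a limma adjusted p of 0.760, and of 6.51e-06 with the block. Tagln, the smooth muscle protein transgelin, measured 7.71, 7.20, 6.40 and 6.34 against 7.17, 6.50, 5.73 and 5.98, and 2 of the 4 N2B27 samples were above the background limit. Its difference of -0.57 overlapped between groups and passed only with the block (limma adjusted p = 0.0118).

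Other cytoskeletal members that passed only with the block fell less. The calponin Cnn2 differed by -0.47, the tropomyosins Tpm1 and Tpm2, which run along actin filaments, by -0.37 and -0.17, and α-actinin 4 (Actn4), a crosslinker, by -0.29. Filamin A (Flna) differed by -0.27, smooth muscle actin (Acta2) by -0.23 and the nuclear lamin gene Lmna by -0.20. Actb, cytoplasmic β-actin, stood at 15.48, 15.37, 14.77 and 14.77 in ESC medium and at 15.28, 15.28, 14.57 and 14.75 in N2B27. These groups overlapped, and the difference of -0.13 passed in neither fit (limma adjusted p = 0.114 with the block), while its other probes gave 0.09 and 0.16. Tpm4, Tagln2, Myh9, the heavy chain of non-muscle myosin, and Tuft1 (tuftelin) passed in neither fit either.

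**Figure D3:**
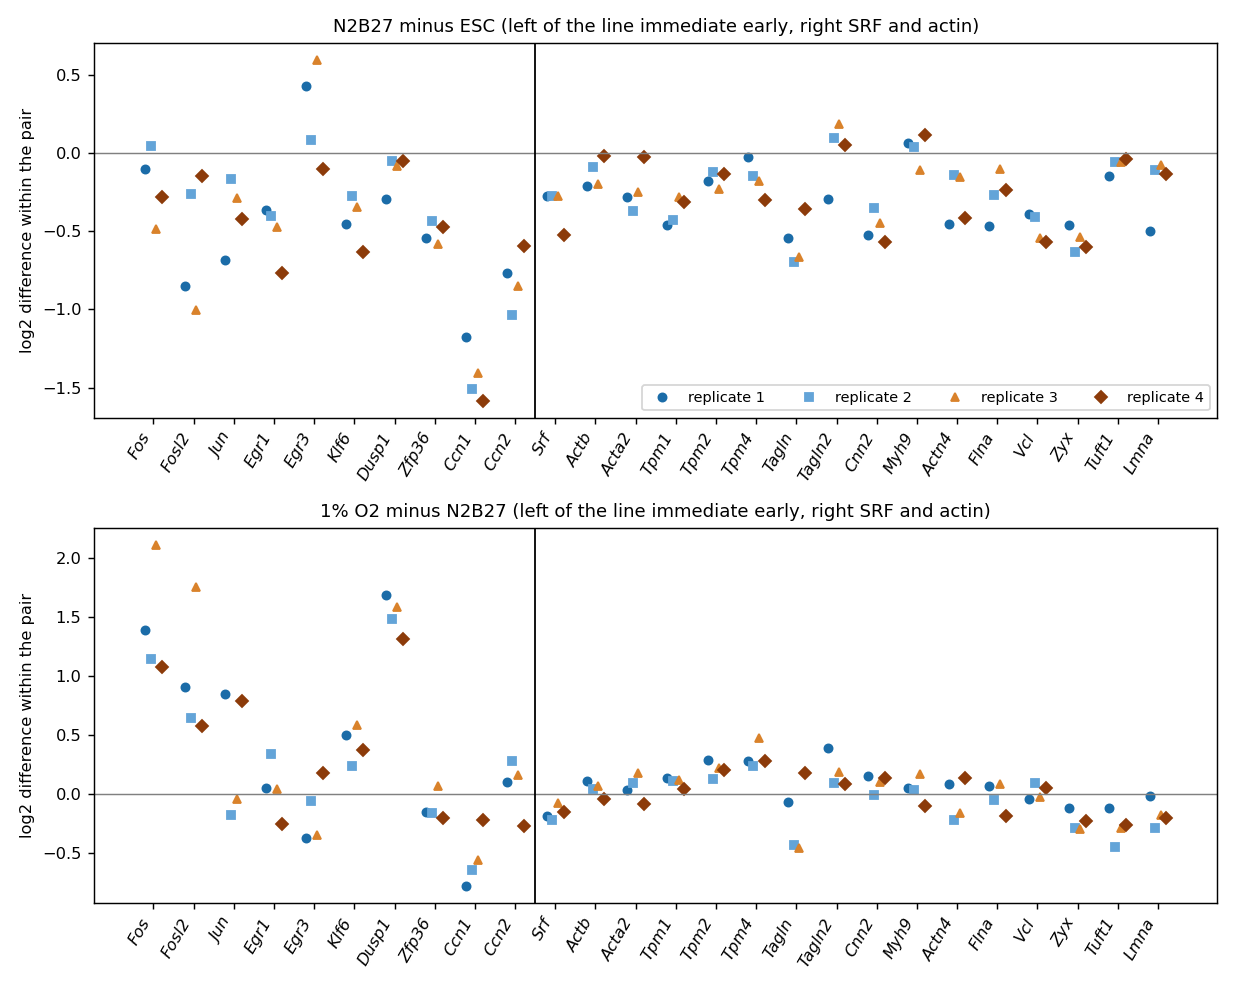
Difference within each replicate pair for the 26 tested members, N2B27 minus ESC above and 1% O2 minus N2B27 below, on the log2 scale. Above, 22 members lie below 0 in all 4 pairs and Ccn1 reaches -1.58, while below, Fos, Fosl2, Klf6 and Dusp1 among the immediate early genes lie above 0 in all 4 pairs.

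Culture for 6 h at 1% oxygen raised a few immediate early genes, and no SRF and actin gene passed without the block. Fos, Fosl2 and Dusp1 passed, all higher at 1% oxygen, which is 3 of 26 members where 4.09% of all genes passed. With the block 8 members passed, where 19.9% of all genes did: Klf6 (0.42), Tpm2 (0.21) and Tpm4 (0.32) were added as higher and Ccn1 (-0.55) and Zyx (-0.23) as lower. The median log2 difference was 0.21 among immediate early members, 0.03 among SRF and actin members and -0.02 among all genes. In all 4 pairs, 8 members were higher at 1% oxygen, 4 of each list, against 15.6% of all genes.

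Dusp1 stood at 10.91, 11.18, 11.09 and 10.91 in N2B27 and at 12.60, 12.65, 12.67 and 12.23 at 1% oxygen. The 2 groups were more than 1 log2 unit apart at their nearest samples. The difference was 1.52 ± 0.15 (SE, n = 4 per group; limma adjusted p = 1.37e-07), a rise of 2.86-fold. Fos rose from 6.63, 6.54, 6.09 and 6.38 to 8.01, 7.68, 8.2 and 7.45. Again no samples overlapped, and the difference was 1.43 ± 0.18 (SE; limma adjusted p = 4.58e-06), or 2.69-fold. Fos was below the background limit in N2B27 replicate 3, and its difference ran from 1.05 to 1.84 under other processing settings. Dusp1 and Fos both kept their call in each omission of 1 sample.

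Fosl2 rose less firmly, from 6.81, 6.45, 5.88 and 6.70 to 7.71, 7.09, 7.63 and 7.28. The groups did not overlap, with a difference of 0.97 ± 0.27 (SE; limma adjusted p = 0.0424). In N2B27 replicate 3, Fosl2 was below the background limit. The call was lost in 6 of 8 omissions, namely of N2B27 replicate 2, 3 or 4 and of 1% O2 replicate 1, 3 or 4, with limma adjusted p up to 0.166. It was also lost with median scaling, with the authors' processed values, without the filter on dim probes, in a fit of the compared groups alone, and with the mean of the gene's probes, which gave 0.46. The second Fosl2 probe gave -0.05.

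Ccn1 measured 6.64, 5.83, 6.38 and 6.89 at 1% oxygen, below its N2B27 partner in each pair. The difference of -0.55 had a limma adjusted p of 0.265, and of 0.00298 with the block. 1 of the 4 samples at 1% oxygen was below the background limit. Egr1 stood at 8.72, 8.49, 9.08 and 8.76, and its difference of 0.05 (95% interval -0.48 to 0.57) passed in neither fit. Srf measured 10.38, 10.12, 10.41 and 10.34, lower in all 4 pairs, with a difference of -0.16 that passed in neither fit (limma adjusted p = 0.0808 with the block). Vcl (0.02), Ccn2 (0.07) and Actb (0.04) did not pass either. Whether the 2 lists differ in their response to oxygen was not tested.

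The oxygen comparison was repeated in cells with doxycycline and with DAPT, on separate samples. Fos and Dusp1 passed in both. In the doxycycline groups 2 members passed without the block, where 4.06% of all genes did, and 9 with it, where 19.4% did. In the DAPT groups 2 passed, where 4.02% of all genes did, and 8 with the block, where 21% did.

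Fos stood at 6.65, 6.39, 6.47 and 6.50 in Dox and at 8.04, 7.66, 7.82 and 7.38 in 1% O2+Dox. The difference was 1.22 ± 0.18 (SE; limma adjusted p = 4.95e-05). In DAPT Fos read 6.43, 6.18, 6.16 and 6.37, with 2 of 4 samples above the background limit, and in 1% O2+DAPT it read 8.21, 7.91, 7.90 and 7.24. That difference was 1.53 ± 0.18 (SE; limma adjusted p = 1.77e-06), and in neither setting did the groups overlap.

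Dusp1 rose from 11.78, 11.53, 11.53 and 11.31 in Dox to 12.68, 12.67, 12.76 and 12.12 in 1% O2+Dox, by 1.02 ± 0.15 (SE; limma adjusted p = 6.36e-05). From DAPT (11.10, 11.14, 11.03 and 10.73) to 1% O2+DAPT (12.65, 12.57, 12.60 and 12.03) it rose by 1.46 ± 0.15 (SE; limma adjusted p = 2.85e-07). The 1% oxygen samples lay above all their controls both times. Between replicates, number 4 was the lowest sample of Dusp1 in each group at 1% oxygen. In replicates 3 and 4 alone, neither gene passed in the doxycycline groups (differences 1.12 for Fos and 1.02 for Dusp1).

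With the block, Fosl2, Klf6 and Tpm4 also passed as higher and Ccn1 and Zyx as lower in both repeats. Fosl2 differed by 0.58 with doxycycline and 0.71 with DAPT, and Ccn1 by -0.49 and -0.62. Their second probes gave less: 0.06 and 0.16 for Fosl2, and -0.34 and -0.03 for Ccn1. Replicate 2 of Ccn1 was below the background limit in 1% O2+Dox and in 1% O2+DAPT. Srf (-0.18) and Lmna (-0.19) passed as lower with the block in the doxycycline groups, and Zfp36 (-0.18) in the DAPT groups. Ccn1 read 6.57, 6.07, 6.65 and 6.46 in 1% O2+Dox, below all 4 Dox samples (6.85, 6.82, 6.66 and 7.39). Its highest 1% O2+Dox sample and its lowest Dox sample lay within 0.01 of each other.

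**Figure D4:**
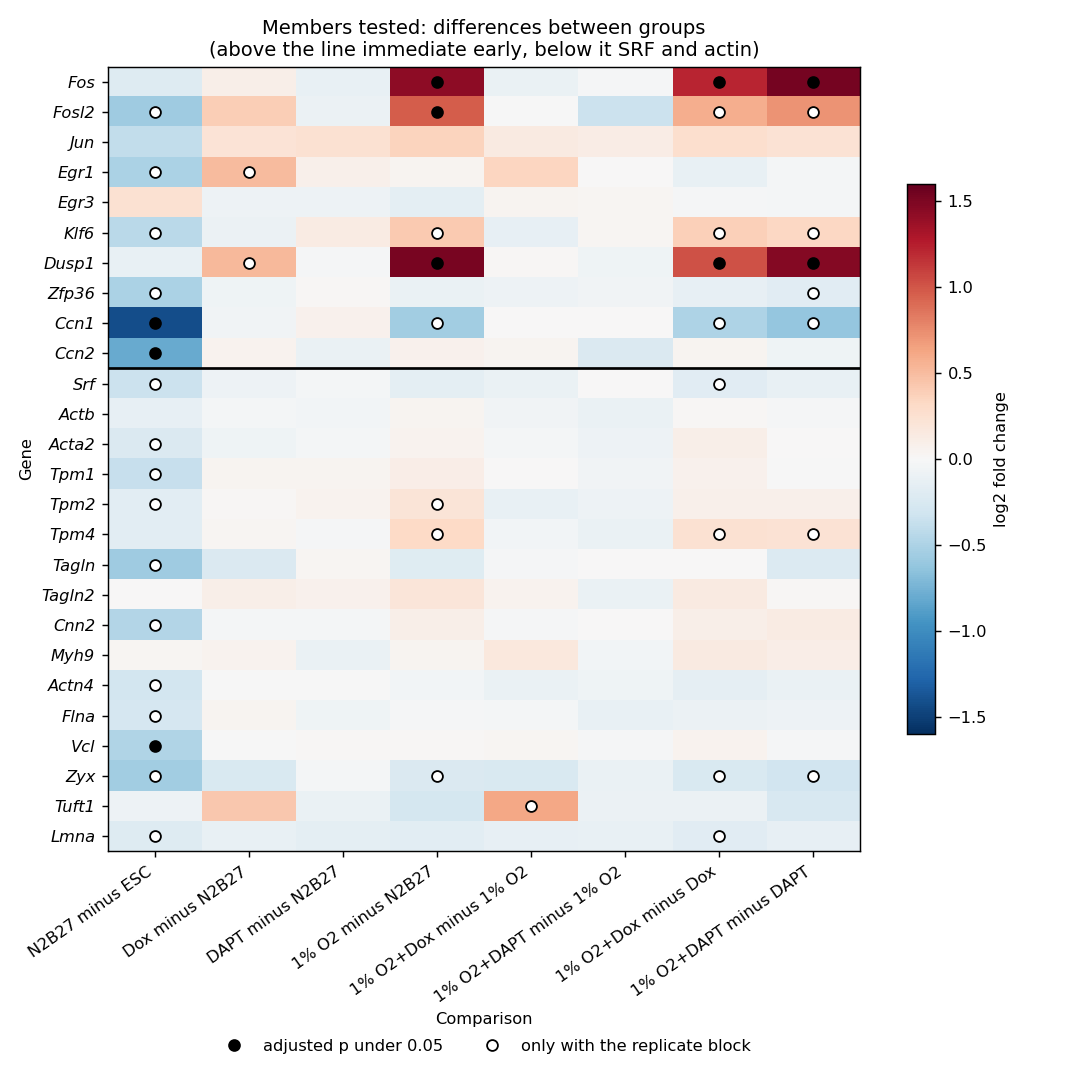
Log2 difference of the 26 tested members (rows) in the 8 comparisons between groups (columns), red higher and blue lower in the first-named group. Filled circles passed without the block and open circles only with it: 3 filled circles stand in the medium comparison, and Fos and Dusp1 are filled in all 3 oxygen comparisons.

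Doxycycline at normal oxygen left every member short of the threshold without the block (0 of 26 in limma, with Dusp1 alone at an unadjusted p under 0.05), where 0.336% of all genes passed. With the block 2 members passed, Egr1 and Dusp1, both higher in Dox, where 1.73% of all genes did. Egr1 stood at 9.38, 8.68, 9.30 and 9.54 in Dox against 8.67, 8.15, 9.04 and 9.01 in N2B27. The groups overlapped but each pair rose, and the difference of 0.51 had a limma adjusted p of 0.0199 with the block. The Dusp1 samples of both groups, given above, did not overlap, and their difference of 0.52 had a limma adjusted p of 0.341, and of 0.000233 with the block. Leaving out N2B27 replicate 1 or 2, or Dox replicate 1 or 4, left 1 of these 2 calls with the block.

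At 1% oxygen, doxycycline moved 0 of 26 members past the threshold in limma without the block (Tuft1 alone had an unadjusted p under 0.05), where 0.193% of all genes passed. With the block Tuft1 passed, where 1.46% of all genes did. Tuft1 measured 8.80, 8.45, 8.30 and 8.47 in 1% O2 and 9.88, 9.05, 8.88 and 8.71 in 1% O2+Dox. The groups overlapped at the lowest 1% O2+Dox sample, and the difference of 0.62 had a limma adjusted p of 0.0135 with the block. The call was lost without 1% O2 replicate 2 or 1% O2+Dox replicate 1. In Dox at normal oxygen Tuft1 read 9.85, 9.28, 8.86 and 8.88 against 8.92, 8.90, 8.59 and 8.74 in N2B27, a difference of 0.43 that passed in neither fit. Egr1 was higher with doxycycline at 1% oxygen in all 4 pairs (0.35), and did not pass either.

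DAPT moved 0 of 26 members past the threshold at either oxygen level, with or without the block, and 0% of all genes passed. At an unadjusted p under 0.05, limma gave 0 members without the block in each case. With the block it gave Lmna at normal oxygen and Fosl2 at 1% oxygen. In the fit without the block, the 95% interval of the DAPT difference for Fos was -0.48 to 0.24 at normal oxygen and -0.38 to 0.34 at 1% oxygen. For Srf it was -0.26 to 0.21 and -0.22 to 0.24.

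The tests of whether the Dox or DAPT difference changed with oxygen called 0 of 26 members in limma. For Dox they called 0.0102% of all genes without the block and 0.0204% with it, and for DAPT 0%. Dusp1 came nearest, as the 1 member with an unadjusted p under 0.05 in limma. Its Dox difference was smaller at 1% oxygen by 0.50 on the log2 scale (95% interval -0.93 to -0.07), which did not pass after adjustment. Across groups Dusp1 means were lowest in DAPT, followed by 11.02 in N2B27 and 11.14 in ESC, and ran through 11.54 in Dox to 12.46 in 1% O2+DAPT, 12.54 in 1% O2 and 12.56 in 1% O2+Dox, with SDs of 0.12 to 0.29. The first 3 and the last 3 of this order each lay within their spread.

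Genes of the same pathways outside the set were read from lists chosen like the members, and their counts stand beside the shares of all genes that passed: 1.93% without the block and 16% with it for the medium, and 4.09% and 19.9% for oxygen. Of 33 further immediate early genes tested, 1 was higher and 1 lower in N2B27 than in ESC medium: Mcl1 (0.35), an anti-apoptotic BCL2 relative, and Phlda1 (-0.46). With the block 2 were higher and 9 lower. At 1% oxygen 4 of the 33 were higher and 2 lower, and with the block 12 and 4. The higher ones were Ier3 (3.57), Gadd45b (0.76), Klf2 (0.73) and Maff (0.71), and the lower ones Arc (-0.70) and Sgk1 (-0.52).

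Of 16 SRF cofactors and actin regulators, Wdr1 (-0.39), which helps cofilin take filaments apart, was lower in N2B27, and 0 passed at 1% oxygen without the block (3 of 16 lower with it, where 19.9% of all genes passed). Of 29 other SRF and MRTF targets, the integrin gene Itgb1 (-0.38) was lower in N2B27, with 7 lower with the block. At 1% oxygen Anxa2 (1.44), a membrane-binding annexin, was higher, with 8 higher and 1 lower with the block. Of 15 YAP and TEAD genes, F3 (-0.73), tissue factor, was lower in N2B27, and Nuak2 (-0.64), a kinase, was lower at 1% oxygen. With the block 3 of the 15 were higher and 5 lower in N2B27, where 16% of all genes passed.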

How the data were processed

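The values start from the intensity per probe and array that the authors deposited, on a linear scale. The file headers call it not normalized. BeadStudio is named in the submitters' processing notes, without a version. A second deposited table held the authors' processed intensity values, with 53.8% to 56.0% of values per array at a floor of 50, and served as an alternative. The tables hold 24611 probes on 30 arrays. The second arrays of Dox replicates 3 and 4 were averaged with the first, leaving 28 samples.

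In R 4.3.3 and limma 3.58.1, background was corrected with normexp (offset 0), because 27.2% to 29.9% of values per array were negative, followed by log2 and quantile normalization. Probe names came from the platform annotation in GEO, updated by Entrez number: 20983 probes had 1 symbol, 1 had several and 3627 had none. A probe was kept when above its array's median in at least 4 of 28 samples, and the brightest kept probe stood for its gene. The model (lmFit, eBayes) had 21 residual degrees of freedom, or 18 with the replicate block. The model without the block was also run on simulated data with noise drawn independently per sample. Those data lack the link between same-numbered samples, and the blocked model was not run on them. The background limit of an array, chosen after seeing the data, was the 98th percentile of the sizes of its negative values. Precision is limited by the number of arrays.

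Same-numbered samples pair: their deviations from the group means correlated at 0.715 to 0.828 in all comparisons, and 168 of 168 matches of a sample with another group were best with its own number. The labels do not say whether replicates were separate cultures, so the p-values reflect the spread between samples, which may be technical.

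The members and lists were chosen with earlier results of these data known. Values in every sample are given for members that passed in any comparison, for those that passed only with the block at a log2 difference of 0.5 or more, and for Srf, Fos, Egr1 and Actb. Up to 5 passing genes per pathway list and comparison are named by adjusted p.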

Additional observations from a re-analysis of the deposited data

Results flagged for a closer look

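In 9 of 182 groups of 4 samples (4.95%), 1 sample of a member stood far from the other 3 by Dixon's criterion, which chance alone meets in about 1 in 20 groups. Replicate 2 was low for Egr1 in DAPT (8.41, others 8.90 to 8.96) and in 1% O2+Dox (8.50, others 9.24 to 9.37), and for Ccn1 in 1% O2+DAPT (6.15, others 6.51 to 6.57). Replicate 4 was low for Dusp1 in 1% O2+Dox (12.12, others 12.67 to 12.76) and in 1% O2+DAPT (12.03, others 12.57 to 12.65). Replicate 1 was high in DAPT for Tagln (7.15, others 6.07 to 6.22), Myh9 (12.93, others 12.59 to 12.62) and Zyx (13.18, others 11.87 to 12.07), and in N2B27 for Cnn2 (10.53, others 10.13 to 10.15).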

How the results depend on the processing

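With the replicate block, the members called became 17 for N2B27 minus ESC, 2 for Dox minus N2B27, 8 for 1% O2 minus N2B27, 1 for 1% O2+Dox minus 1% O2, 9 for 1% O2+Dox minus Dox and 8 for 1% O2+DAPT minus DAPT. The block changed no other count of members, and the calls made without it all passed with it too. Over all genes it moved the calls from 190 to 1575 for N2B27 minus ESC, from 33 to 170 for Dox, from 402 to 1958 for 1% O2, from 19 to 143 for 1% O2+Dox minus 1% O2, from 399 to 1908 for 1% O2+Dox minus Dox and from 395 to 2060 for 1% O2+DAPT minus DAPT.

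With a fit of the 2 compared groups alone, 0 members passed for N2B27 minus ESC (limma adjusted p for Ccn1 0.0614), and also in replicates 1 and 2 only. In replicates 3 and 4 only, 0 passed for 1% O2+Dox minus Dox. These fits hold fewer samples. Median scaling turned the SRF and actin median for 1% O2 minus N2B27 from 0.03 to -0.019, and it moved the median of all genes from -0.02 to -0.12 in 1% O2+DAPT minus DAPT, where it called 829 genes against 395. Leaving out 1 sample gave 1 to 3 members for N2B27 minus ESC, 2 to 3 for 1% O2 minus N2B27, 2 for each repeat of the oxygen comparison and 0 elsewhere. With the block, an alternative added after seeing the data, it gave 14, 15, 16, 17 or 18 (N2B27 minus ESC), 1 to 2 (Dox), 7 to 9 (1% O2), 0 to 1 (1% O2+Dox minus 1% O2), 5 to 8 (1% O2+Dox minus Dox) and 6 to 8 (1% O2+DAPT minus DAPT). None of 45 member differences that passed in either fit changed sign under the 11 settings other than omissions. The normexp offset of 50, a filter at 14 of 28 samples and first arrays only changed 0 of these 45 calls.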

Other observations

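Repeat arrays were made for Dox replicates 3 and 4. Between the first and second array of Dox replicate 3 the largest difference among the 26 tested members was 0.51, for Egr3, and for Dox replicate 4 it was 0.73, for the dim Tagln. Over all genes the SD of the difference between repeat arrays was 0.21 and 0.23, against 0.25 between Dox replicates 3 and 4, 0.27 between replicates 1 and 2 and 0.54 between replicates 1 and 3. Among the 4 smooth muscle markers tested, the median difference between 1% oxygen and N2B27 was 0.05, and Smtn (-0.37) was lower with the block (limma adjusted p = 0.00211). Markers of the other lists also differed with the block, where 19.9% of all genes passed. Of 9 fibroblast and feeder markers tested, 3 were higher and 1 lower at 1% oxygen. Higher too were 1 of 8 ES cell, 2 of 7 extraembryonic endoderm and 1 of 4 trophectoderm markers. Lmod1, a leiomodin listed among the smooth muscle markers, was 1.69 higher on the log2 scale at 1% oxygen than in N2B27 (limma adjusted p = 4.64e-08), with 2 of 4 N2B27 samples above the background limit. In Dox, Lmod1 was 0.935 higher than in N2B27 (limma adjusted p = 0.00298).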
